A study of Carthamus tinctorius with 15 samples.

Results

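In safflower (Carthamus tinctorius), an oilseed of the daisy family, 262 genes stood lowest in root, higher in stem and higher again in leaf, with a limited step each time. They were 262 of the 33242 genes in the table, or 0.788%, and 1.26% of the 20769 genes tested. They were chosen by their measured values, with no annotation. For each tissue the mean of log2(FPKM + 1) was taken over 3 libraries, where FPKM is a read count scaled by gene length and by the library's mapped reads. A gene was chosen where stem minus root and leaf minus stem were each at least 1 and less than 2 on that log2 scale, and where flower stood less than 2 above leaf. Each step was therefore close to a 2-fold to 4-fold difference in well expressed genes. The order root, stem, leaf and the height of each step are the choice and not a finding. The level in flower was bounded only from above, by leaf, and where it falls below that bound was not set directly. Its place against root, stem and leaf still depends in part on their chosen levels.

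The samples were root, stem, leaf and flower, with 3 RNA sequencing libraries each. The labels give only the tissue of each library, with no cultivar, age or treatment, and do not say that the libraries came from separate plants, so a p-value here reflects the spread among libraries that may be technical. The 3 seed libraries of the study, whose stated aim is oil formation in seeds, were not analysed here. Genes are called by their row in the table, counted from 1, and by the length in bases recovered from the values, since gene names were not used here. What the genes encode is therefore not described.

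As background, roots take up water and minerals and live on imported sugar, stems hold the conducting tissue between root and shoot and often carry a green outer layer, and leaves are the main site of photosynthesis. In land plants the genes of photosynthesis are typically lowest in root, intermediate in green stem and highest in leaf, and other genes of the shoot surface and of plastids can follow the same order. A safflower flower head holds many small florets with petals, stamens and pistils beside green bracts, so it mixes green and non-green parts. In whole tissue, fewer cells of a type and less RNA per cell cannot be told apart.

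Each library held between 26183138 and 31500664 reads counted to genes, as recovered from the FPKM values. The number of reads behind a gene sets its precision. Taking for each member the median of the 3 libraries of a tissue, the median member had 135 reads per library in root. It had 462.5 per library in stem, 1471.5 in leaf and 223 in flower. Fewer than 30 reads over 3 libraries lay behind 40 members in root, 3 in stem, then 0 in leaf, with 37 in flower. All 262 members passed the filter for testing, which asked for 1 FPKM in 3 libraries, and 5 of them passed through leaf alone. No member had the same values as another row.

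In leaf the members were well expressed. Their mean level in leaf had a median of 43.0 FPKM, with quartiles of 13.9 and 86.2 and a range from 4.13 to 849.8. Over all genes tested the median in leaf was 11.1 FPKM. In stem the members had a median of 15.6 FPKM, and in root a median of 4.74. All genes tested had medians of 12.1 FPKM in stem and 11.9 in root, so the typical member was below the typical gene in root and above it in leaf, as the choice of rising genes brings about. In flower the members had a median of 6.94 FPKM, with quartiles of 1.28 and 23.7, next to 6.95 for all genes tested.

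As a share of all FPKM in a library, the members took 0.307%, 0.308% and 0.319% in the root libraries. They took 0.876%, 0.871% and 0.883% in stem, and 2.53%, 2.53% and 2.51% in leaf. In flower the shares were 0.843%, 0.871% and 0.862%. The libraries of one tissue lay close together, and the highest flower share met the lowest stem share near 0.871%, while root and leaf lay apart on either side. By the median gene flower was nearer root, and by the summed share it was level with stem. The 13 members at 100 FPKM or more in flower held 43.8% of the members' flower FPKM.

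**Figure D1:**
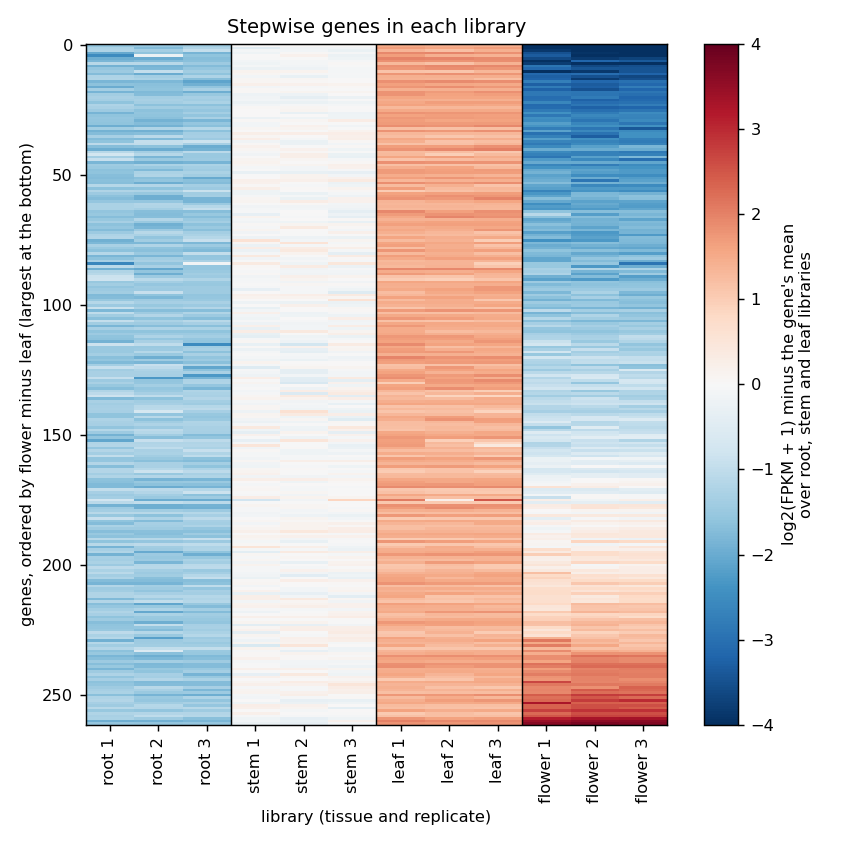
Heat map of the 262 genes (rows, ordered by flower minus leaf) in the 12 libraries (columns, in tissue order). Colour is log2(FPKM + 1) of the library minus the gene's mean over its root, stem and leaf libraries, drawn in the end colours beyond 4 either way. Root is low and leaf high on average in each row by the choice of genes, while the flower columns run from far below root at the top to above leaf at the bottom.

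The steps filled the permitted square without keeping to one ratio. Stem minus root had a median of 1.42 on the log2(FPKM + 1) scale, with quartiles of 1.19 and 1.69. Leaf minus stem had a median of 1.48, with quartiles of 1.25 and 1.72. The step from stem to leaf was the larger in 150 members and the step from root to stem in 112, and in 51 of the 262 the steps lay within 0.1 of each other. Across the 262 genes the steps showed a Pearson correlation of 0.086 and a Spearman correlation of 0.094, a description over genes that share the 3 stem libraries, within limits set by the choice. Leaf minus root ran from 2.05 to 3.84, with a median of 2.92.

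On the log scale stem is intermediate by choice. The permitted steps also put it nearer root than leaf on a linear scale, so that place is not a finding. Measured from root to leaf in mean FPKM, stem stood at a median of 0.261 of the way, within a range from 0.150 to 0.409. For means of log2(FPKM + 1) converted back to a linear scale, a slightly different measure, the choice permits 0.143 to 0.429. In FPKM itself the median leaf-to-root ratio was 9.69 over the 255 members with any root read. For the 126 members at 5 FPKM or more in root that ratio ran from 4.25 to 15.1, with a median of 8.17. It exceeded 100 in 14 members, because adding 1 to each FPKM hides large ratios at low levels, and 60 members were under 1 FPKM in root. The leaf-to-stem ratio had a median of 3.0 and reached no more than 5.85.

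**Figure D2:**
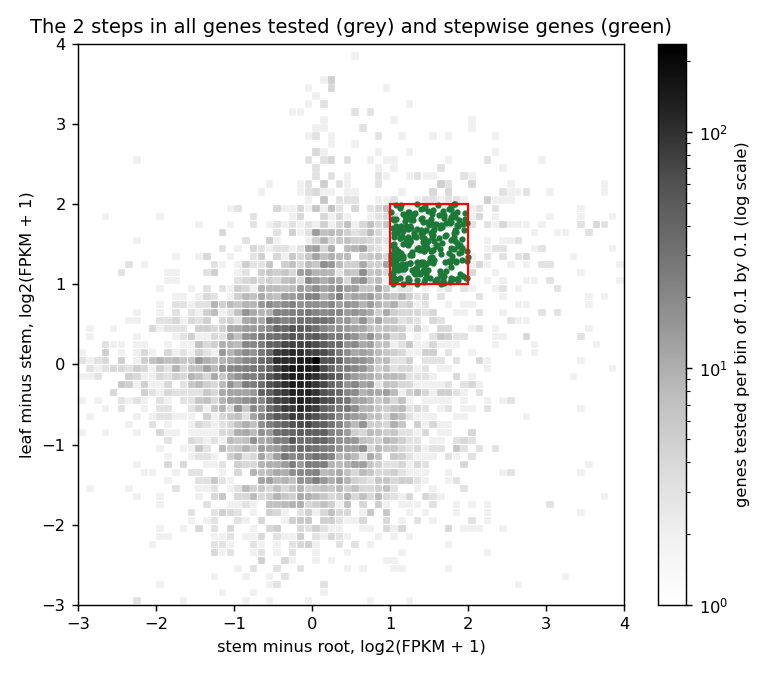
Each gene's stem minus root (horizontal axis) against its leaf minus stem (vertical axis), in log2(FPKM + 1). Grey shades count all genes tested per bin of 0.1 by 0.1 on a log colour scale, and the green points are the 262 genes, in the outlined square from 1 to 2 on both axes. The points fill the square, with 40 and 33 of them within 0.1 of its left and lower edges and 16 and 19 within 0.1 of its right and upper edges.

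The libraries kept this order in nearly every member. All 3 root libraries were below all 3 stem libraries in 260 members, all stem libraries below all leaf libraries in 260, and both held in 259, beside 28.5%, 28.8% and 12.6% of all genes tested. The exceptions were rows 1738, 26207 and 6208. With limma on all genes, stem was called higher than root in all 262 members, beside 11% of the genes tested. Leaf was called higher than stem in 261 members, beside 11.4%, and higher than root in 262, beside 16.5%. Here and below, called means a Benjamini-Hochberg adjusted p under 0.05 over all 20769 genes and a difference of at least 1 in log2(FPKM + 1). Nothing is read from these counts, since the same means chose the genes. Row 1738, at 46 bases the shortest of the members named here, was the one whose leaf and stem libraries were not called apart.

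The gene with the highest leaf level was row 13485, of 1320 bases. It measured 137, 145 and 152 FPKM in the root libraries, 301, 300.1 and 299 in stem, then 849.6, 855 and 845 in leaf, with 70.3, 77.1 and 69.3 in flower. Every tissue lay apart from the others, with flower lowest. Flower minus root was -0.99 (SE 0.0479) in log2(FPKM + 1), just short of a call for its size, with a limma adjusted p of 1.22e-09.

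Row 23538, of 1541 bases, went the other way in flower. Its libraries read 40.3, 37.3 and 39.1 FPKM in root, 132, 124 and 129 in stem, and 473, 467 and 469 in leaf. In flower it reached 607, 611 and 613 FPKM, the highest flower level of any member, above every leaf library. Flower minus stem was 2.24 (SE 0.0385, limma adjusted p 1.61e-13), and flower minus leaf was 0.38.

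Row 7555, of 1520 bases, had 35.2, 33.1 and 34.6 FPKM in root, 140.1, 128 and 132 in stem, and 457, 451 and 446 in leaf. Its flower libraries, at 30.7, 30.6 and 29.5 FPKM, lay under its root libraries by a narrow margin. Flower minus root was -0.17 (SE 0.0437, limma adjusted p 0.00274), too small for a call, and its direction turned to 0.57 when the libraries were scaled by median ratios.

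Row 33164, of 1570 bases, had a clearer gap below root. It read 70.8, 66.3 and 64.8 FPKM in root, 181, 184 and 179 in stem, then 436, 439 and 445 in leaf, with 20.1, 17.9 and 18.5 in flower. Flower was below root in all libraries, by -1.79 (SE 0.0489, limma adjusted p 6.6e-12). By contrast row 3524, of 1326 bases, stood in flower between root and stem, with 61.7, 58.1 and 58.9 FPKM in root, 147, 139 and 146 in stem, then 419, 429 and 424 in leaf, with 77.0, 80.5 and 78.3 in flower. Its flower minus stem was -0.86 (SE 0.0399, limma adjusted p 8.93e-10).

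The last of the 6 members highest in leaf was row 11589, a gene of 456 bases. It had 38.0, 34.6 and 39.6 FPKM in root, 111, 116 and 116 in stem, and 387, 386 and 386 in leaf. Flower replicate 1, at 24.7 FPKM, was above replicates 2 and 3, at 18.5 and 15.1, and all 3 were below root. Flower minus root was -0.93 (SE 0.127, limma adjusted p 2.24e-05), not large enough for a call. Over these 6 genes the leaf mean ran from 386 to 849.8 FPKM and the flower mean from 18.8 to 610.3 FPKM, without following the order in leaf.

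**Figure D3:**
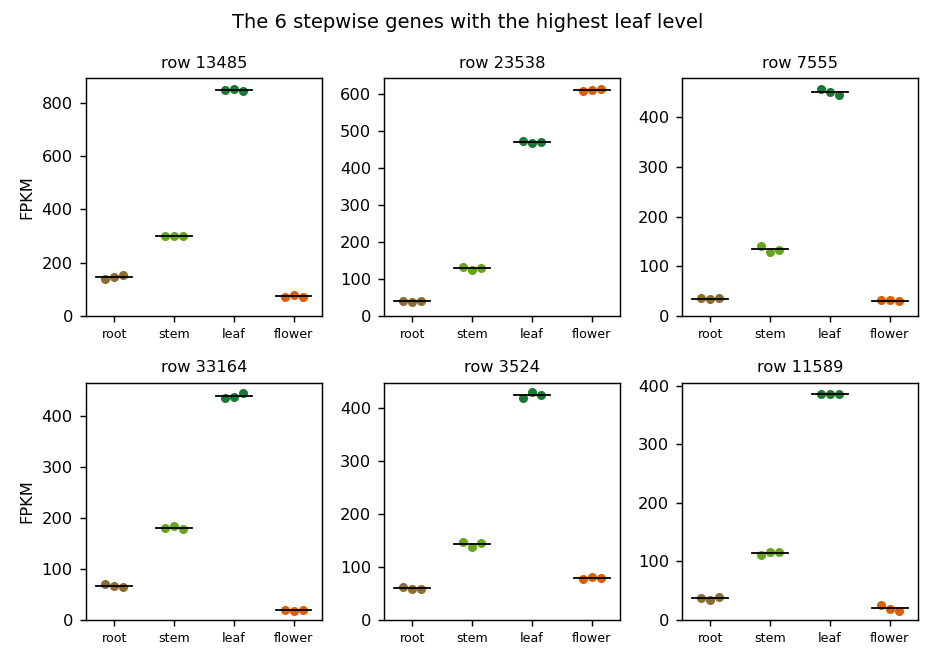
FPKM (vertical axis, from 0, scaled to each gene) of the 6 genes with the highest leaf level in each of the 12 libraries, as points by tissue, with lines at the tissue means. Root, stem and leaf climb in all 6 genes, and flower lies below root in 4 (for row 7555 above root after median-ratio scaling), between root and stem in row 3524 and above leaf in row 23538.

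The 4 members with the largest leaf minus root were rows 3069, 143, 11476 and 26549, at 3.84, 3.83, 3.81 and 3.78. Rows 3069 and 143 were nearly silent in root, with 8 and 6 reads over the 3 root libraries. Row 3069, of 1842 bases, had 3.21, 3.49 and 2.59 FPKM in stem and 12.9, 14.1 and 15.4 in leaf, and 3 reads in all in flower. Row 143, of 1975 bases, had 2.53, 2.20 and 3.43 FPKM in stem, then 14.6, 13.5 and 13.1 in leaf, with 41.4, 44.7 and 45.4 in flower. Both genes thus had like levels in root, stem and leaf and lay far apart in flower. Flower minus stem was -2.0 (SE 0.102, limma adjusted p 2.12e-09) in row 3069. In row 143 it was 3.60 (SE 0.112, limma adjusted p 2.36e-11).

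Row 11476, of 901 bases, held 15.3, 15.2 and 18.6 FPKM in root, 62.4, 61.7 and 55.7 in stem, then 249, 245 and 234 in leaf, with 4.23, 3.48 and 3.86 in flower. Row 26549, of 1308 bases, held 18.8, 19.6 and 15.5 FPKM in root, 73.5, 72.5 and 71.0 in stem, then 251, 263 and 258 in leaf, with 9.75, 6.98 and 8.02 in flower. In both, the 4 tissues did not overlap and flower was lowest. The flower minus root value was -1.84 (SE 0.0839, limma adjusted p 7.36e-10) in row 11476 and -1.04 (SE 0.103, limma adjusted p 1.18e-06) in row 26549.

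Members with the most equal steps also differed in flower. Row 15390 rose by 1.78 at each step, with means of 17.1 ± 2.48, 60.8 ± 3.19 and 211 ± 5.69 FPKM in root, stem and leaf and 6.12 ± 0.375 in flower (SD, n = 3). Row 9804 rose by 1.77 and 1.76, from 8.33 ± 1.82 over 30.4 ± 1.72 to 105 ± 1.47 FPKM, and stood at 52.8 ± 7.58 in flower (SD, n = 3). Nearly the same steps therefore came with flower far below root in the former gene and between stem and leaf in the latter. Row 18115 rose by 1.03 and 1.03, with 14.6, 30.8 and 63.7 FPKM in root, stem and leaf and 18.5 in flower.

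The most uneven steps lay at the corners of the permitted square. Row 4740 rose by 1.07 and then 1.99, and row 16457 by 1.01 and then 1.9. In those genes the level was 1.07 and 0.744 FPKM in root, 3.32 and 2.48 in stem, and 16.1 and 11.9 in leaf. The opposite shape was held by row 21471, with steps of 1.99 and 1.07, and row 27454, with 1.97 and 1.07. Row 27454 went from 14.8 FPKM in root over 61.3 in stem to 129.6 in leaf, and had 216 in flower.

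The choice confined both steps and left flower free below its limit. That the members parted in flower was therefore open to them by choice, and is given as a description. Against root, flower was called higher in 94 members, or 35.9%, where 17.3% of all genes tested were called higher. It was called lower in 41 members, or 15.6%, where 39.8% of all genes were called lower, and not called in 127. The choice of genes low in root tilts this comparison upward. The members' median was 4.74 FPKM in root against 11.9 for all genes tested, and 6.94 against 6.95 in flower. Nothing is read from these counts either. Against leaf, flower was called lower in 196 members, or 74.8%, beside 37.1% of all genes, and higher in 10, or 3.82%, beside 18.6%; leaf is high by choice and the flower limit used this contrast, so nothing is read from those counts.

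Stem is the middle tissue of the choice, but its values were used as well. The members stood above the typical gene in stem and level with it in flower, at medians of 15.6 against 12.1 FPKM and 6.94 against 6.95, so a surplus of lower calls follows from the stem level and nothing is read from it. Against stem, flower was called lower in 133 members, or 50.8%, beside 39% of all genes tested. It was called higher in 39 members, or 14.9%, beside 16.3%. The remaining 90 were not called. The median of flower minus stem over the members was -1.05, within a range from -5.16 to 3.92, and -0.58 over all genes. Flower minus root had a median of 0.35 over the members, from -3.61 to 5.44, and -0.61 over all genes. Flower minus leaf had medians of -2.55 and -0.48.

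The scaling of the libraries bears on these counts. When the libraries were rescaled by median ratios instead of FPKM alone, the median over all genes moved from -0.61 to 0.00 for flower minus root and from -0.58 to -0.05 for flower minus stem. The split against root then became 124 higher and 23 lower, in place of 94 and 41, beside 26.7% and 27.8% of all genes after that scaling. Against stem it became 69 higher and 106 lower, in place of 39 and 133, beside 25.3% and 28.2% of all genes. Of the calls against stem, 39.4% were then higher in flower, in place of 22.7%, and over all genes 47.2% in place of 29.5%. The members' medians became 0.87 against root and -0.53 against stem, with the same signs as before. Relative to the median of all genes, the members' median stood 0.96 higher against root, or 0.87 after rescaling, and at -0.47 against stem, or -0.48 after rescaling. The choice used the root and stem levels, so nothing is read from these offsets.

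**Figure D4:**
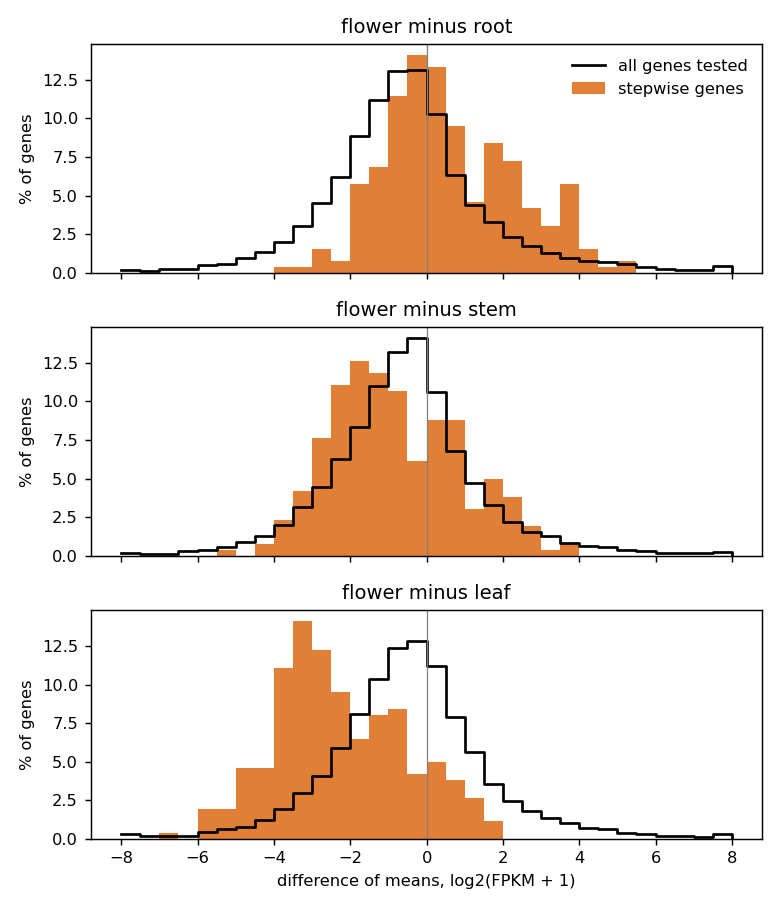
Distribution of flower minus root, flower minus stem and flower minus leaf in log2(FPKM + 1), for the 262 genes (filled) and for all genes tested (line), as percent of each set per bin, with values beyond 8 either way in the end bins. The median of the 262 genes is 0.35 against root, -1.05 against stem and -2.55 against leaf.

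Taking the 3 flower contrasts jointly, the members fell into 7 patterns, given here as a description. The shares over all genes tested take in genes of any order in root, stem and leaf, so the members' counts are not read against them as a difference. In the most frequent, 92 members or 35.1%, flower was lower than stem and leaf and not called against root, beside 4.35% of all genes. Their median levels were 2.84 FPKM in root, 8.92 in stem, then 26.0 in leaf, with 2.0 in flower, so these genes were low in both root and flower. In 41 members, or 15.6%, flower was lower than all 3 other tissues, beside 25% of all genes. Those genes had medians of 9.02, 23.5 and 69.6 FPKM in root, stem and leaf, and had 1.70 in flower. A call as lower needs a difference of at least 1, which the 60 members under 1 FPKM in root could not reach against root. The higher root level of this group is therefore partly set by the call, and nothing is read from it.

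At the other end, flower was higher than all 3 tissues in 10 members, beside 10.9% of all genes, with medians of 0.784, 3.43, 16.0 and 50.2 FPKM in root, stem, leaf and flower. In 29 members flower was higher than root and stem and not called against leaf, beside 1.95% of all genes. In 27 it was higher than root with no call against stem or leaf, beside 1.9%. A further 28 members had flower higher than root, not called against stem and lower than leaf, beside 0.741%. In the last 35 members flower was lower than leaf and not called against root or stem, beside 4.7%. These counts depended on the processing. After median-ratio scaling the groups of 10, 29, 41 and 27 became 20, 49, 23 and 18. Over all genes 25.6% were then called higher than leaf, in place of 18.6%, and 27.8% lower than root, in place of 39.8%. With a pseudocount of 0.1 the group of 35 became 17, the group of 41 became 59 and the group of 92 became 75. The split between the groups of 41 and 92 thus depended on the pseudocount too. With that pseudocount 8 members formed an added pattern, with flower higher than root and lower than stem and leaf. Over all genes 44.3% were called lower than root with it. The shares of all genes in the joint patterns at these settings are not given here, so the shifts are not read as particular to the members. The group of 29 held 41.0% of the members' flower FPKM and 10.4% of their leaf FPKM. The group of 10 held 13.6% and 1.79%.

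The means alone gave a like division. Flower stood below root in 108 members, between root and stem in 69, between stem and leaf in 52 and above leaf in 33, or in 74, 82, 62 and 44 after median-ratio scaling. As shares these were 41.2%, 26.3%, 19.8% and 12.6%. Among the other 3987 genes tested whose means rose from root over stem to leaf by any amount, the shares were 44.5%, 21.0%, 12.6% and 22.0%; this comparison was not tested, and the flower limit held for the members only. In the 167 genes that met the mirrored rule, falling from root over stem to leaf, flower stood below leaf in 49.7% and above root in 13.2%. Split by root level, flower was below root in 42.9% of the 126 members at 5 FPKM or more in root and in 39.7% of the other 136.

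Library by library, flower lay wholly below root in 76 members and wholly above it in 130, beside 58.3% and 27.7% of all genes tested, and overlapped root in 56. Against stem it lay wholly below in 170, wholly above in 73, beside 58.5% and 27.6% of all genes, and overlapped in 19. Those counts exceed the calls because a call also needs a difference of at least 1, so 130 stands beside 94 called and 170 beside 133.

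Within the flower limit of the choice, flower stood furthest above leaf in row 28785, of 1420 bases. It was all but absent from root, with 2 reads over 3 libraries, had 1.54, 1.39 and 1.87 FPKM in stem and 9.36, 9.21 and 9.46 in leaf, and reached 36.3, 39.6 and 38.6 in flower. The flower mean was 4.08-fold the leaf mean, and all flower libraries were above leaf. Flower minus stem was 3.92 (SE 0.0843, limma adjusted p 1.02e-12). Flower minus leaf was 1.92, and after median-ratio scaling 2.39, above the limit of 2. Rows 143 and 14242 also passed that limit after that scaling, at 2.08 and 2.06.

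Row 14242, of 2351 bases, held 1.47, 1.25 and 0.860 FPKM in root, 4.36, 3.78 and 4.26 in stem, then 19.3, 17.3 and 18.1 in leaf, with 52.3, 58.1 and 59.2 in flower. Row 32623, of 2232 bases, was more abundant, with 16.0, 20 and 18.1 FPKM in root, 39.9, 40.1 and 39.1 in stem, then 93.9, 96.7 and 95.3 in leaf, with 235, 271 and 274 in flower. In both genes every flower library was above every leaf library, as in row 143. Flower minus stem was 3.49 (SE 0.105, limma adjusted p 1.79e-11) in row 14242 and 2.68 (SE 0.0759, limma adjusted p 1.05e-11) in row 32623.

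Flower stood furthest below leaf in row 30184, of 1338 bases. Its libraries held 14.4, 14.6 and 16.6 FPKM in root, 45.6, 46.6 and 46.7 in stem, and 129.5, 125 and 125 in leaf. In flower they held 0.639, 0.229 and 0.147 FPKM, or 41 reads over the 3 libraries, against 15899 in leaf. The flower minus root difference was -3.61 (SE 0.112, limma adjusted p 2.03e-11), and the leaf mean was 374-fold the flower mean. Replicate 1 carried most of the flower reads, and without it the flower mean was 0.188 FPKM in place of 0.338.

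Row 24834, of 1085 bases, had 9.25, 6.48 and 9.66 FPKM in root, 17.6, 21.4 and 21.2 in stem, then 77.6, 73.1 and 78.0 in leaf, with 0.363, 0.126 and 0.484 in flower. Row 2090, of 1613 bases, had 10.6, 10.6 and 8.24 FPKM in root, 21.5, 22.8 and 24.95 in stem, then 61.1, 55.3 and 65.0 in leaf, with 0.815, 0.443 and 0.366 in flower. Both were expressed in every tissue but flower, where no library reached 1 FPKM. In log2(FPKM + 1), flower minus root was -2.83 (SE 0.143, limma adjusted p 1.86e-09) in row 24834 and -2.81 (SE 0.125, limma adjusted p 5.72e-10) in row 2090. Rows 30184, 31379, 24834 and 2090 were named for the smallest flower minus root among the members, row 2090 for that alone. Nothing is read from their p-values against root, since the same difference picked them.

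Row 25705, of 769 bases, held 14.8, 20.8 and 17.2 FPKM in root, 57.3, 67.0 and 63.4 in stem, then 247, 253 and 231 in leaf, with 4.91, 3.32 and 3.07 in flower. Row 31379, with a recovered length of 53 bases, held 55.6, 50.4 and 66.6 FPKM in root, 124, 121 and 109 in stem, then 341, 306 and 352 in leaf, with 8.06, 2.57 and 6.19 in flower. The short length makes its FPKM large for few reads, which were 27 in flower and 1656 in leaf. Flower minus root was -1.97 (SE 0.142, limma adjusted p 5.55e-08) in row 25705 and -3.24 (SE 0.259, limma adjusted p 1.52e-07) in row 31379. In 8 members flower was at least 2 lower than each other tissue in log2(FPKM + 1), which were rows 2090, 6584, 10691, 24834, 27434, 29475, 30184 and 31379. The share of all genes tested with such a gap is not given here, so nothing is read from this count.

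**Figure D5:**
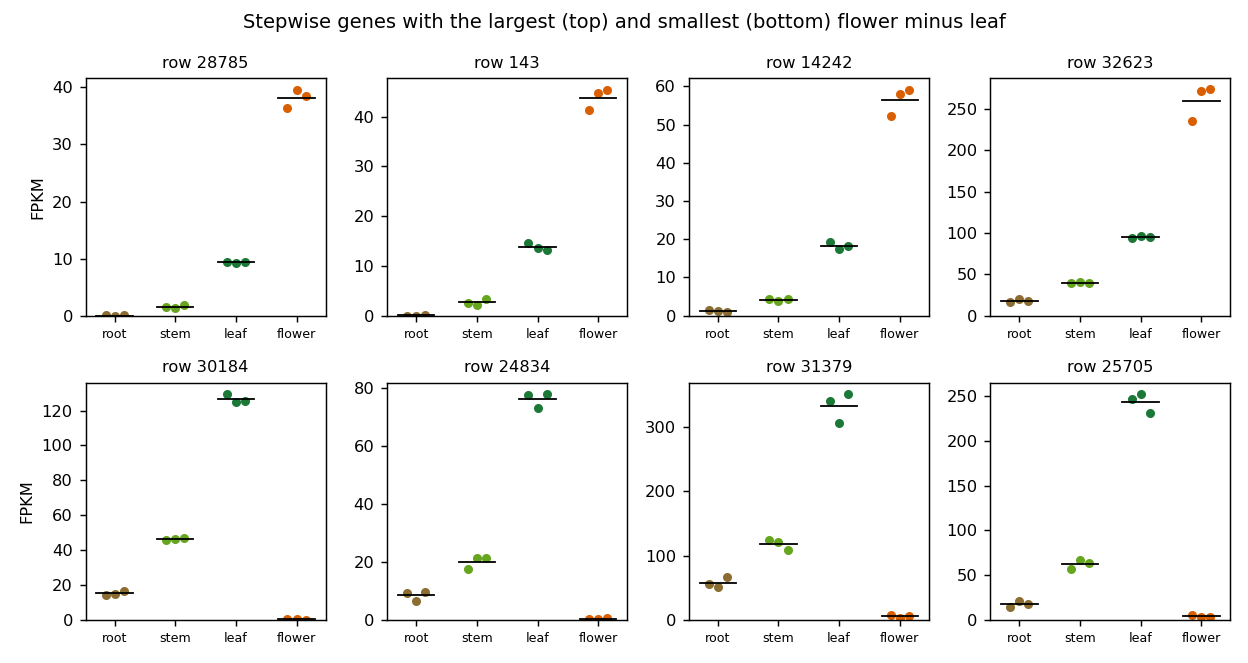
FPKM (vertical axis, from 0, scaled to each gene) in each of the 12 libraries of the 4 genes with the largest (top) and the 4 with the smallest (bottom) flower minus leaf, as points by tissue, with lines at the tissue means. The genes look alike from root to leaf, and their flower libraries lie above leaf in the former 4 and below root in the latter 4.

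The 3 members whose flower mean was nearest their stem mean were named for that closeness, which depended on the scaling. Row 8461, of 2802 bases, had 67.1, 69.5 and 69.1 FPKM in stem and 71.3, 68.6 and 67.0 in flower, beside 33.5, 33.5 and 33.2 in root and 177, 174 and 176 in leaf. Flower minus stem was 0.01 (SE 0.0382, limma adjusted p 0.865). Row 9659, of 1054 bases, had 42.1, 39.4 and 43.5 FPKM in stem and 40.3, 44.5 and 41.5 in flower, a difference of 0.02 (SE 0.0719, limma adjusted p 0.849). Stem and flower libraries overlapped in both, and the direction of so small a difference turned when single libraries were left out. Row 24324, of 369 bases, also differed by 0.02, with a wider spread (SE 0.209, limma adjusted p 0.939). After median-ratio scaling flower minus stem was 0.69 in row 8461, 0.70 in row 9659 and 0.66 in row 24324, with limma adjusted p-values of 3.55e-09, 4.8e-06 and 0.012.

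The members' replicates were tightest where the genes were highest. The coefficient of variation of FPKM over the 3 libraries had a median of 14.4% in root, 7.29% in stem, and of 4.45% in leaf, while flower was at 15.6%. Over all genes tested the medians were 7.52%, 7.43%, 7.49% and 15%. The members' root values were therefore the less certain end of the first step, along with their low read numbers.

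Root replicate 3 and flower replicate 1 were looked at separately, since single libraries can move a mean of 3. Root replicate 3 over the mean of replicates 1 and 2, after adding 1 to each, had a median of 1.01 over the members. It exceeded 1.5 in 2 of them and was under the inverse of 1.5 in 6. The ratio was highest in row 1738, of 46 bases, with 10.9, 23.3 and 64.1 FPKM in root, or 128 reads, and without replicate 3 its root mean was 17.1 in place of 32.8. Row 19404, of 330 bases, had 0.436, 1.04 and 1.87 FPKM in root, and row 5186, of 1026 bases, had 2.07, 2.35 and 3.64. In both, root replicate 3 was highest and all 3 root libraries stayed below stem.

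Flower replicate 1 over the mean of replicates 2 and 3 had a median of 0.998 over the members and 1.02 over all genes tested. It exceeded 1.5 in 10 members and was under the inverse of 1.5 in 10. In row 219, of 2350 bases, flower read 414, 225 and 222 FPKM, beside 124, 122 and 126 in leaf, and without replicate 1 the flower mean was 223 in place of 287. In row 16875, of 2244 bases, flower read 11.9, 5.63 and 5.83 FPKM, against 13.9, 14.0 and 15.3 in leaf and 4.27, 4.16 and 3.83 in stem. In row 27434, of 60 bases, flower read 4.38, 2.27 and 0.547 FPKM on 13 reads, below every root library, at 8.39, 43.9 and 16.6. In row 219 flower stood above leaf without replicate 1 too, but flower minus leaf was then 0.85 in place of 1.14, so its call as higher than leaf was lost.

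The recovered lengths had a median not far from that of all genes tested, with a smaller share of long genes. They ran from 46 to 7187 bases with a median of 1243.5, beside 1350 for all genes tested, and 5 members were under 100 bases. Members over 3000 bases made up 4.58%, against 9.21% of all genes tested. Length showed a Spearman correlation of -0.00281 with the leaf level and 0.115 with flower minus leaf across the 262 genes, given as descriptions with length also entering FPKM itself.

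Some members were neighbours in the table, a count given with no reference beside it. In 6 pairs 2 members stood in adjacent rows, and flower held the same place against the other tissues in 3 of the 6 pairs. What the row order stands for was not used here.

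Within 0.1 of a step limit were 97 of the 262 members, which by itself does not show a crowding there. At the lower limit of stem minus root, rows 12795 and 16457 lay just inside at 1.008 and 1.013, and rows 23948 and 22372 just outside at 0.998 and 0.992. At its upper limit, rows 28463 and 25048 lay inside at 1.995 and 1.992, and rows 16872 and 19223 outside at 2.001 and 2.002. Distances this small lie within the replicate spread, whose median SD in log2(FPKM + 1) over the members was 0.140 in root and 0.0950 in stem.

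For leaf minus stem, rows 10248 and 1738 lay just inside the lower limit at 1.003 and 1.004, and rows 27520 and 27497 outside at 0.996 and 0.994. Rows 143 and 11476 lay just inside the upper limit at 2.0 and 1.999, and rows 30273 and 30253 outside at 2.005 and 2.010. The flower limit left out 8 of the 270 genes that met both steps, with flower minus leaf from 2.27 to 5.80. Row 16535, with 57.7 FPKM in flower and 11.2 in leaf, was the nearest outside at 2.27, and row 28785 was the nearest inside at 1.92.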

How the data were processed

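RNA from root, stem, leaf and flower was sequenced in 3 libraries per tissue. The deposited values are FPKM per gene, made with the tools fastp, HISAT2 and HTSeq and with R 3.2.0 per the submitters' processing notes. Genome build and annotation are not given in the sources used for this work. Whole reads per gene, library totals and gene lengths were recovered from the FPKM values, within 0.01 reads for all 26625 rows above 0. The other 6617 rows were at 0 throughout. Lengths of genes with very few reads can come out too short.

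FPKM was converted to log2(FPKM + 1), and understates the change of low genes. The 20769 genes that reached 1 FPKM in 3 or more libraries were fitted with limma 3.58.1 in R 4.3.3, with a mean per tissue over all 12 libraries, 8 residual degrees of freedom and a mean-variance trend, two-sided, after tests on simulated data. The 300-gene cap of the selection was not reached. The genes and lists were chosen with earlier results of these data known.

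Named genes were those highest in leaf (6), with the largest leaf minus root (4), with the most equal (3) or most unequal steps. In flower they were those with extreme flower minus leaf (4 each way), the smallest flower minus root (4) or stem-like levels (3). Others had root replicate 3 or flower replicate 1 high (3 each), or lay next to the limits. Alternatives were a pseudocount of 0.1, median-ratio scaling, no filter, fits of single tissue pairs, a replicate block and leaving out libraries.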

Additional observations from a re-analysis of the deposited data

How the results depend on the processing

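Most counts of members called in flower held within 1.5 times under 18 alternatives. Median-ratio scaling was the exception. It gave 23 members lower in flower than root in place of 41. Against stem 69 were higher in place of 39, and against leaf 20 in place of 10. Over all genes the shares were 27.8% in place of 39.8%, 25.3% in place of 16.3% and 25.6% in place of 18.6%. With that scaling 143 of the 262 kept their joint pattern, with a pseudocount of 0.1 it was 213, and without flower replicate 1 it was 235. With a pseudocount of 0.1, 165 of the 262 met the same rule again. The 97 lost had a median root level of 0.645 FPKM, and 87 of them then had a root-to-stem step of at least 2. No filter and fits of single tissue pairs gave the main counts. Leaving out 1 library at a time gave 93 to 95 members higher and 39 to 45 lower than root, 39 to 43 higher and 130 to 137 lower than stem, 9 to 11 higher and 194 to 197 lower than leaf, and 237 to 262 members chosen again. Leaving out both root replicate 3 and flower replicate 1, an alternative chosen after seeing the data, gave 93 and 41 against root, 43 and 133 against stem and 11 and 195 against leaf.

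Replicate numbers did not pair the libraries. Deviations correlated from -0.036 to 0.025 for equal numbers and from -0.024 to 0.032 for different ones, and 5 of 12 libraries correlated best with their own number. The replicate block gave 94 higher and 41 lower than root, 39 and 133 against stem, and 10 and 196 against leaf.

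The sign turned in 5 named genes, the cause of which was not tested. Flower minus stem of row 8461 was -0.00772 without stem replicate 1 and -0.0169 without flower replicate 1, with or without root replicate 3, reached 0.0277 over the single libraries left out, and was 0.693 under median-ratio scaling. In row 9659 it was -0.0231 without stem replicate 2 and -0.0233 without flower replicate 2, up to 0.0459 with a library left out, and 0.695 under median-ratio scaling. In row 24324 it was -0.168 without stem replicate 3 and -0.124 without flower replicate 3, up to 0.183 with a library left out, and 0.659 under median-ratio scaling. Flower minus root of row 7555 was 0.571 under median-ratio scaling, and that of row 1738 was 0.174 under that scaling and 0.092 without root replicate 3, and at its lowest -1.13 without root replicate 1. Low read numbers limited the root and flower values most, as 40 and 37 members rested there on fewer than 30 reads.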
